A study of Arabidopsis thaliana with 24 samples.

Results

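Transcript levels in pistils of the phyB mutant were set against those of Col-0 wild-type pistils at normal ambient temperature (nAT, 21 °C by day and 18 °C by night), using 8 of the 24 RNA-seq libraries of the series. The phyB plants carried the phyb-9 allele (N6217), and 4 libraries of phyB nAT pistils were compared with 4 libraries of Col-0 nAT pistils across all genes of the deposited count table. All pistils were unfertilized, came from flowers before anthesis and were grown in long days. The same 2 genotypes at high ambient temperature (hAT, 28 °C by day and 24 °C by night, after a move from nAT at flowering) gave a second comparison that shares no library with the first, with 4 libraries of phyB hAT and 4 of Col-0 hAT. The fits also held 35S::PIF4 pistils, a line in which the viral 35S promoter drives PIF4. The labels do not say whether plants were pooled within a library.

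Phytochrome B is a red light photoreceptor that also reports temperature, because its active form reverts faster in warm conditions. Active phytochrome B moves to the nucleus and brings about the loss of PIF proteins, basic helix-loop-helix factors such as PIF4 that otherwise switch on growth, auxin and shade avoidance genes. A phyB mutant at normal temperature therefore lacks the main receptor that holds PIFs down, and seedlings of such mutants are tall and pale, much like plants kept warm or in shade. The comparison describes how the pistil transcriptome of the phyb-9 line differs from that of Col-0 at nAT. It cannot tell the receptor apart from any other difference between this line and Col-0.

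Library totals were 21.094 to 24.225 M counts in phyB nAT and 18.38 to 23.881 M counts in Col-0 nAT. The Col-0 nAT libraries stood apart from the other 20 in several measures. TMM scaling factors were 1.036 to 1.043 in phyB nAT and 0.6746 to 0.7969 in Col-0 nAT, with 0.9961 to 1.093 over the other 20 libraries. The mean length of the counted gene, weighted by counts, was 2115 to 2152 bases in phyB nAT and 1612 to 1804 bases in Col-0 nAT, with 2065 to 2220 bases over the 20 libraries of the other groups. The 10 most abundant genes took 3.807 to 3.858% of the counts in phyB nAT and 6.416 to 6.619% in Col-0 nAT. Replicates also varied more in Col-0: the chi-square per degree of freedom of a pair of libraries was 1.74 to 2.61 in phyB nAT and 3.12 to 59 in Col-0 nAT, highest in pairs with Col-0 replicate 2. Pistil genes were present in both groups, with the ovule identity gene STK at 179 to 183 CPM (counts per M counts, where M is mega, scaled by TMM factors) in phyB and 181 to 207 CPM in Col-0. Since these are bulk pistils, fewer cells of a type and less RNA per cell cannot be told apart in any of the values that follow.

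Among 21312 genes tested, phyB stood above Col-0 at nAT in 4508 (21.2%) and below it in 2542 (11.9%). Calls required both an adjusted p under 0.05, from the quasi-likelihood test of edgeR, and a log2 fold change of at least 1 in size. The fold change followed gene length. In the 2132 longest genes (median 3823 bases) the median log2 fold change of phyB over Col-0 was 1.244 and 62% of genes were called higher, against 0.188% called lower. In the 2132 shortest (median 605.5 bases) the median was -0.46, with 21.2% called higher and 30.7% lower. Over all genes the Spearman correlation of the log2 fold change with length was 0.446 at nAT and 0.21 at hAT, given as a description across genes. A second fit therefore took off, library by library, the part of each gene's level that goes with its length, and the correlation fell to 0.017 at nAT. The correction moved the median of all genes by -0.156, so that it stood at 0.107 uncorrected and -0.049 corrected.

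With the length correction 2879 genes (13.5%) were higher and 2108 (9.89%) lower in phyB. Changes called in the same direction in both fits are described as having remained: 2539 genes were higher (11.9% of all tested, and 56.3% of the uncorrected calls) and 1449 were lower (6.8%, and 57% of the uncorrected calls). No gene was called in opposite directions by the 2 fits. The 1969 calls of higher level that were lost had a median length of 3299 bases and the 1093 lost calls of lower level 984 bases. In the longest of 10 equal bins only 17% of the higher calls remained, and in the bin of 1085 to 1315 bases 36.5% of the lower calls did, whereas all lower calls of the 5 longest bins remained. The correction takes off any change that runs with length, whatever its source, and the length trend and the genotype cannot be told apart in these 8 libraries. In 2345 of the 2539 genes that remained higher, all 4 phyB libraries lay above all 4 Col-0 libraries, and in 1373 of the 1449 that remained lower all 4 lay below. Of all genes tested, 37.9% had every phyB library above every Col-0 library and 30.7% had every one below. A lack of overlap between the groups was thus common and does not by itself set a gene apart.

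**Figure D1:**
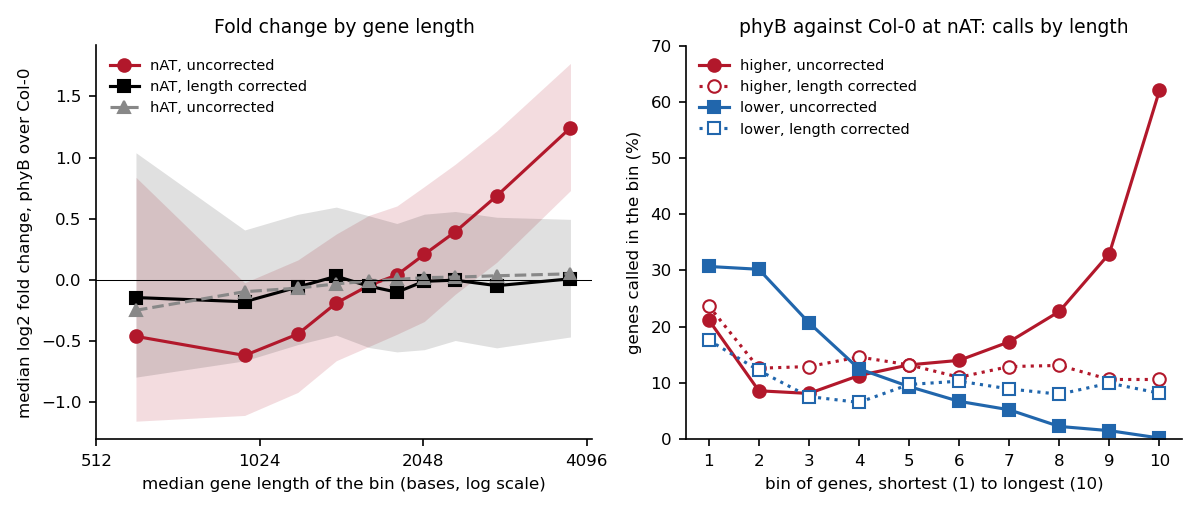
Left: median log2 fold change of phyB over Col-0 in 10 bins of tested genes by length, at nAT before (red circles) and after the length correction (black squares) and at hAT before it (grey triangles), with the middle 50% of genes shaded for nAT. Right: percentage of genes in each bin called higher (red) or lower (blue) in phyB at nAT before (filled) and after (open symbols) the correction. The uncorrected median climbs to 1.244 in the longest bin and the corrected one stays between -0.177 and 0.031.

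The mutated gene itself was still transcribed. PHYB (AT2G18790, chromosome 2 of TAIR10, 8139756 to 8144461) had 59.9, 63.5, 63.8 and 64.1 CPM in the phyB libraries, against 84.9, 52.8, 93.5 and 86.8 CPM in Col-0. Only Col-0 replicate 2 lies below the phyB libraries. The log2 fold change was -0.34 (standard error 0.11, adjusted p = 0.00481, edgeR) before and -1.72 (standard error 0.05) after the length correction, so PHYB, a gene of 4528 bases, was not called in both fits. At hAT it averaged 77 CPM in phyB and 105 CPM in Col-0. The phyb-9 allele is known to carry a nonsense mutation, and a transcript level does not test for it. PIF4 (AT2G43010, chromosome 2, 17886101 to 17889087) had 4.44, 3.89, 3.29 and 2.46 CPM in phyB, against 2.15, 1.21, 2.36 and 2.72 CPM in Col-0. The groups overlap, and its log2 fold change of 0.71 became 0.14 with the correction (adjusted p = 0.489, edgeR).

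The other phytochromes and most PIF genes kept no call in both fits. PHYA, the receptor for far-red light and for very weak light, had a log2 fold change of 0.42 uncorrected and -1.09 corrected, with a length of 5111 bases. PHYC stood at 0.92 and -0.25, with uncorrected calls without Col-0 replicate 3 (1.023) or 4 (1.005), PHYD at 0.89 and -0.40, and PHYE at 1.49 and 0.28. Among 8 PIF and HFR1 genes tested, 4 were higher uncorrected and 1 remained, where 21.2% and 11.9% of all genes did. The 1 was PIF6, at means of 0.504 CPM in phyB and 0.081 CPM in Col-0, with log2 fold changes of 2.52 and 2.39. Its groups overlap (SD 0.265 and 0.128 CPM), and it was called higher at hAT (1.73). PIF1, which represses seed germination in the dark, had 1.23 uncorrected and 0.84 corrected, and PIF3 had 1.14 and 0.45. PIF5, a close relative of PIF4, had 1.14 and 0.59, and was called higher at hAT (1.28). HFR1, a partner that holds PIFs off DNA, had 0.68 and 0.78 at nAT and 1.45, a call, at hAT.

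Targets that PIFs induce in shaded seedlings were mostly below the threshold at nAT. PIL1, an early shade marker, had 19.0, 18.2, 18.4 and 17.2 CPM in phyB, against 9.01, 5.89, 12.5 and 8.49 CPM in Col-0. Its groups do not overlap, as for 37.9% of all genes, with phyB above. Its log2 fold change of 1.01 uncorrected and 0.92 corrected sits at the threshold. The uncorrected call was lost without phyB replicate 1 (0.994) or Col-0 replicate 2 (0.8766) or 4 (0.9823). A corrected call was gained without Col-0 replicate 3 (1.104). At hAT PIL1 was 2.04 higher in phyB on the log2 scale, and the difference between temperatures was itself called in both fits. HAT4, a homeodomain factor of shade avoidance also known as ATHB2, had 0.71 and 1.01 at nAT, with no uncorrected call, and its corrected value was 0.9457, 0.992 and 0.8864 without phyB replicate 2, Col-0 replicate 3 and Col-0 replicate 4. At hAT HAT4 had 1.42. Of 17 shade avoidance genes tested, 1 remained higher and 2 remained lower, where 11.9% and 6.8% of all genes did. The list median was -0.334 uncorrected and -0.137 corrected, against 0.107 and -0.049 over all genes. The 1 that remained higher was FHL, which carries phytochrome A into the nucleus, at 3.19, 3.31, 2.06 and 2.82 CPM in phyB, against 0.624, 0.968, 1.89 and 0.762 CPM in Col-0 (log2 fold change 1.42 and 1.47). Of 8 auxin biosynthesis genes tested, including the YUCCA flavin monooxygenases, none was called uncorrected and 1 was lower with the correction.

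Among genes with a symbol in the count table that remained, had a mean of at least 5 CPM in 1 group and did not overlap between the groups, the 12 largest rises lay between 3.70 and 6.19 on the log2 scale by the corrected value. A further 35 genes without a symbol, 4 of them outside the annotation, lay at or above the 12th of these and are not described. They were led by HSP17.7 (AT5G12030, chromosome 5, 3883957 to 3884838), a small heat shock protein that keeps damaged proteins soluble, with 8.89, 9.75, 6.93 and 8.29 CPM in phyB, against 0.208, 0.0807, 0.135 and 0.163 CPM in Col-0. Its log2 fold change was 5.76 (standard error 0.30) uncorrected and 6.19 (standard error 0.29, adjusted p = 9.531e-17, edgeR) corrected. CYCB1;5 (AT1G34460, chromosome 1, 12595110 to 12602379), annotated as a B-type cyclin, had 13.0, 15.2, 15.5 and 15.4 CPM in phyB, against 0.0693, 0.0807, 0.27 and 0.163 CPM in Col-0. In both genes every phyB library was far above every Col-0 library, and CYCB1;5 had 6.57 uncorrected and 5.38 corrected.

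Several of the other large rises were in genes for regulators. HSFA2, a heat shock transcription factor, had 35.8, 32.8, 31.9 and 32.4 CPM in phyB, against 2.15, 0.807, 2.70 and 2.23 CPM in Col-0 (log2 fold change 4.03 uncorrected and 3.87 corrected). SR34b, a serine and arginine rich splicing factor (AT4G02430, chromosome 4, 1068974 to 1072263), had 46.6, 48.2, 47.9 and 47.7 CPM in phyB, against 3.39, 1.37, 3.5 and 2.34 CPM in Col-0 (4.15 and 3.84). The ethylene response factor family members ERF055 and ERF015 had corrected values of 4.84 and 3.95, and NFYC10, a subunit of the NF-Y DNA binding complex, 4.29. MORC2, a GHKL ATPase of the family that silences transposons, had 12.7, 13.5, 12.4 and 12.9 CPM in phyB, against 0.693, 0.0807, 0.876 and 1.09 CPM in Col-0 (4.14 and 3.83). PUB37, named as a U-box protein, had 3.94 and CATHB1, a cathepsin B-like cysteine protease, 3.76.

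The last pair behaved differently by temperature. EXL4, an extracellular lipase of the pollen coat, had 15, 11.5, 12.3 and 12.5 CPM in phyB, against 1.45, 1.37, 0.674 and 0.653 CPM in Col-0 at nAT (3.66 and 3.99), whereas at hAT it averaged 0.425 CPM in phyB and 1.89 CPM in Col-0 (-2.11). XTH3, a xyloglucan endotransglucosylase of the cell wall, had 3.29 and 3.70 at nAT and -1.89 at hAT. Of the 12 genes, 4 were called higher at hAT too (HSP17.7, CYCB1;5, HSFA2 and MORC2), these 2 were called lower there and 6 had no call. SR34b was among the last, with means of 58.9 CPM in phyB and 55.5 CPM in Col-0 at hAT. All 12 differed between temperatures in both fits, in a test that shares the nAT libraries that chose the genes.

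**Figure D2:**
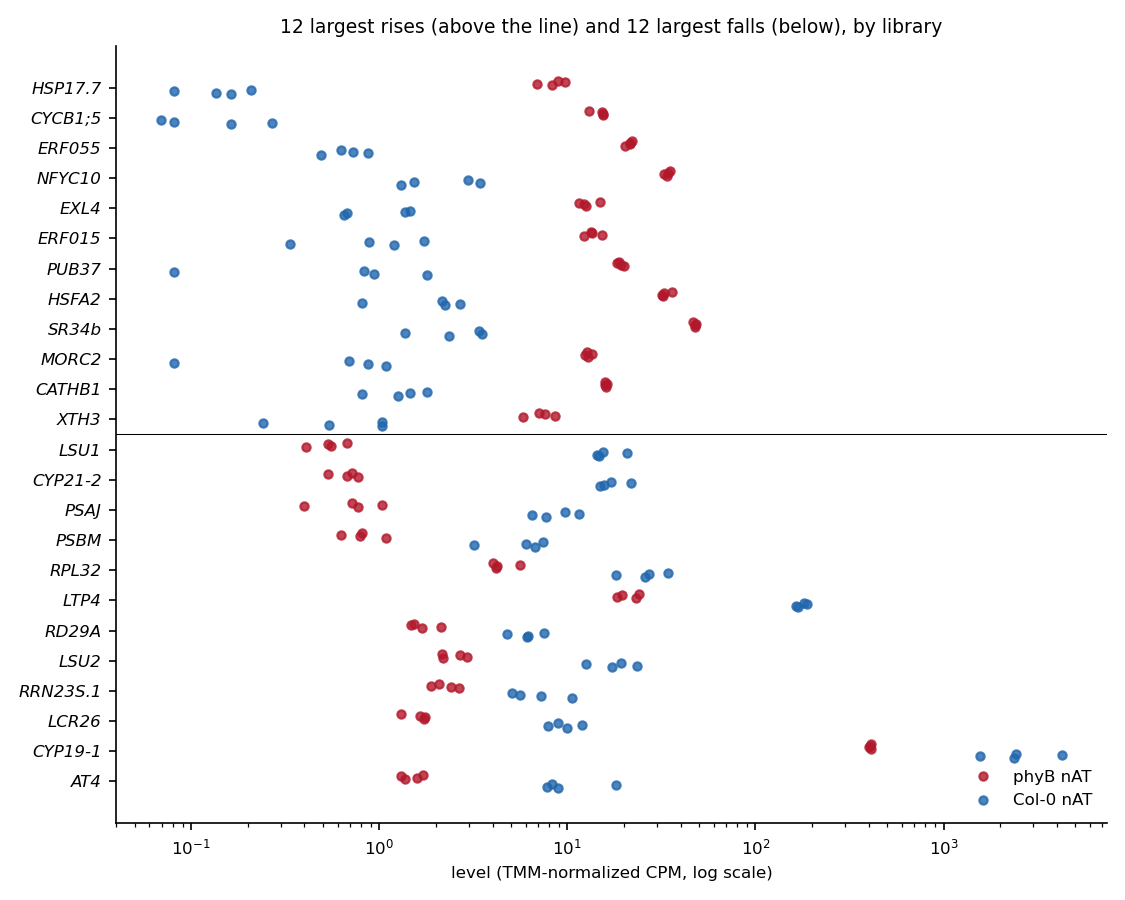
Level of each gene in each library (TMM-normalized CPM, log axis) for the 12 largest rises, above the line, and the 12 largest falls, below it, among genes with a symbol whose groups do not overlap, with phyB nAT in red and Col-0 nAT in blue, 4 points each. The phyB points of HSP17.7 sit between 6.93 and 9.75 CPM and those of Col-0 between 0.0807 and 0.208 CPM.

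Most of the listed heat shock genes were higher in phyB at normal temperature, while the summed level of the list was lower, at 1984 to 2008 CPM in phyB and 3104 to 3294 CPM in Col-0. Its most abundant members, HSP81-2, HSP90-3 and HSP70-3, were lower with the correction. Of 20 tested, 14 were higher uncorrected (70%, against 21.2% of all genes) and the same 14 remained, with a list median of 2.44 uncorrected and 2.146 corrected. One, HSP70-3, remained lower. The small heat shock proteins beside HSP17.7 included HSP17.6, its neighbour on chromosome 5, with 4.09, 3.22, 3.09 and 4.46 CPM in phyB, against 0.139, 0.161, 0.135 and 0.109 CPM in Col-0 (4.74 and 5.16). HSP17.6A had 15.5, 13.8, 13.7 and 14.4 CPM in phyB, against 2.84, 3.71, 2.16 and 2.01 CPM in Col-0 (2.45 and 2.89). HSP17.6B stood at 2.44 and 2.87, HSP17.8, a small heat shock gene outside the list that was added after its values were seen, at 1.27 and 1.70, and the mitochondrial HSP23.5 at 1.67 and 2.09. HSP17.4A was found in 1 count over all 4 Col-0 libraries and 68 over the 4 phyB libraries, a ratio of 44.5 with a 95% interval of 7.72 to 1780 that covers counting error only.

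The larger chaperones were more abundant in both genotypes. CLPB1, the disaggregase also called HSP101 that is needed for acquired heat tolerance, had 76.2, 74.4, 76.1 and 75.1 CPM in phyB, against 9.91, 5.41, 12.1 and 8.76 CPM in Col-0, and its log2 fold change of 3.05 became 2.05 with the correction. HSP90-1, the heat-inducible HSP90, had 31.1, 29.0, 29.0 and 26.9 CPM in phyB, against 5.33, 5.16, 5.93 and 4.95 CPM in Col-0 (2.44 and 2.21). MED37C, which encodes an HSP70 protein, had 68.4, 67.4, 67.2 and 70.6 CPM in phyB, against 18.6, 10.6, 18.6 and 13.8 CPM in Col-0 (2.15 and 1.64). None of these groups overlap, where 37.9% of all genes had every phyB library above every Col-0 library. The co-chaperones FKBP65 (2.49 and 2.19) and HOP3 (3.07 and 2.42), both added after their values were seen, were higher as well. The constitutive member HSP70-3 was lower, at 371, 367, 377 and 380 CPM in phyB and 777, 763, 835 and 778 CPM in Col-0 (-1.08 and -2.05). HSP90-3 had -0.92 and -1.53 and was called with the correction only. Reads of HSP90-3 may be shared with its near-identical neighbours.

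The windows upstream of 3 heat shock genes that rose and hold a GAANNTTC match are shown because heat shock factors bind inverted GAA repeats. They run from up to 250 bases before the annotated start to its last upstream base, are trimmed where another gene begins, were read from RefSeq TAIR10.1, and are written 5′ to 3′ on the gene's strand with matches to GAANNTTC in capitals.
HSFA2 (chr2:11135466-11135623, plus strand): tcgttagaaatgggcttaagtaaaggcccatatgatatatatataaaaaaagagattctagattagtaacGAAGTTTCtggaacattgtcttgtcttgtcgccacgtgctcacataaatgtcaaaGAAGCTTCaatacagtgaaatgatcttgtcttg
HSP17.4A (chr3:16984868-16985117, minus strand): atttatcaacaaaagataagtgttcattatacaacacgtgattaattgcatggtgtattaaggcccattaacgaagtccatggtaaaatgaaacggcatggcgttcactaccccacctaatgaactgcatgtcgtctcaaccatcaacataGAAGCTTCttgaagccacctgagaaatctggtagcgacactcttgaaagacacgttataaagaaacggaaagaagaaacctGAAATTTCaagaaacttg
HSP17.6C (chr1:19980126-19980298, plus strand): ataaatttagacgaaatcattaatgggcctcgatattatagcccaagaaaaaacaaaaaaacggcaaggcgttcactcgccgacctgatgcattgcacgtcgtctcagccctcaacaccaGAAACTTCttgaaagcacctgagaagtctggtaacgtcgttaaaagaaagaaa
GAANNTTC reads the same on both strands. HSFA2 and HSP17.4A hold 2 matches each and HSP17.6C 1. Over full 250-base windows 4 of 20 heat shock genes (20.0%) and 9.23% of 21214 genes held a match, and the 3 shown are among those 4. HSP17.7, HSP17.6, CLPB1, HSP90-1 and MED37C, which also rose, held none. A match is a description of the letters only. HSP17.6C had 2.15, 1.39, 1.35 and 0.547 CPM in phyB, against 0.277, 0, 0 and 0.0544 CPM in Col-0 (3.94 and 4.35).

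At hAT, with other libraries of both genotypes, 13 of the 20 heat shock genes were called higher in phyB (1.56% of all genes were), with a list median of 1.612 against -0.014 for all genes. MED37C reached 509 ± 99.5 CPM in phyB and 119 ± 7.92 CPM in Col-0 there (SD, n = 4 each). HSP90-1 averaged 130 CPM in phyB and 37.2 CPM in Col-0, and HSFA2 21.1 CPM in phyB and 5.12 CPM in Col-0. For MED37C, HSP90-1, FKBP65, HSP17.8 and HSP23.5 no difference between the temperatures was called in either fit, whereas that of HSP17.7, HSP17.6 and HSFA2 was larger at nAT. A log2 difference under 1 had an adjusted p under 0.05 (edgeR) in both fits for HSP90-1 (0.64 uncorrected and 0.42 corrected). It did so in 1 fit for FKBP65 (0.69 uncorrected), HSP17.8 (-0.45 uncorrected) and MED37C (-0.43 corrected), and in neither for HSP23.5. The 35S::PIF4 pistils at nAT, which share the Col-0 controls and are given by level only, held 8.46 CPM of MED37C, 7.60 CPM of HSP90-1, 23.3 CPM of CLPB1 and 0.0762 CPM of HSP17.7. Leaving out any 1 of the 8 nAT libraries kept 14 heat shock genes higher and 1 lower.

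**Figure D3:**
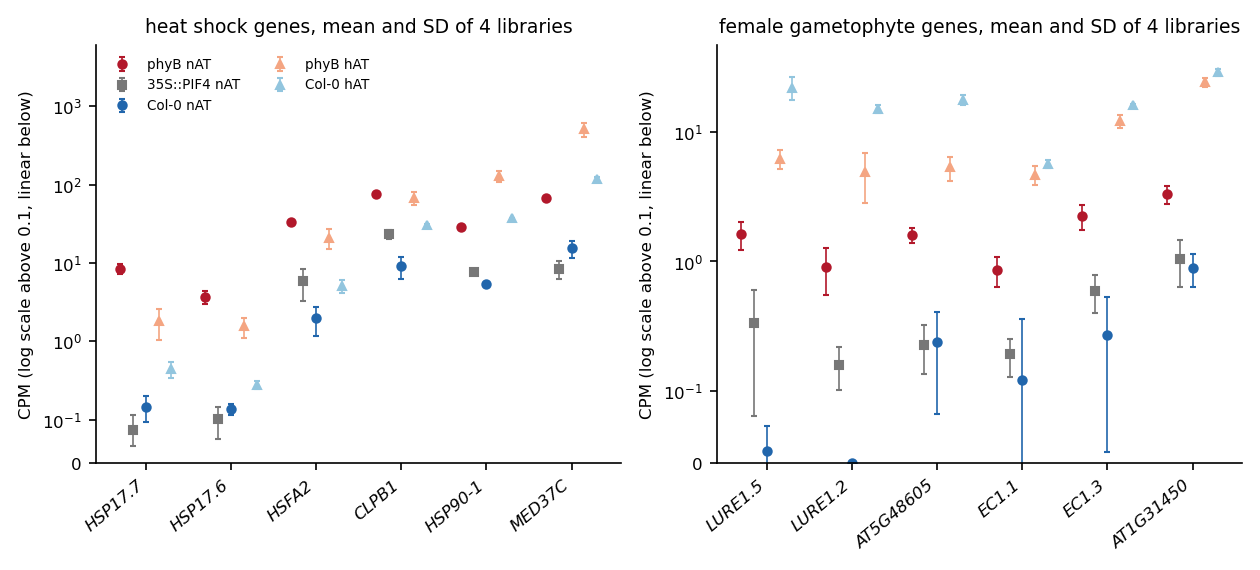
Mean level and SD of 4 libraries (TMM-normalized CPM, log axis above 0.1 and linear below) of 6 heat shock genes (left) and 6 female gametophyte genes (right) in phyB nAT (red circles), 35S::PIF4 nAT (grey squares), Col-0 nAT (blue circles), phyB hAT (orange triangles) and Col-0 hAT (light blue triangles). MED37C stands at 68.4 CPM in phyB nAT and 15.4 CPM in Col-0 nAT, and at 509 CPM in phyB hAT and 119 CPM in Col-0 hAT, whereas LURE1.5 is higher in phyB at nAT and lower in phyB at hAT.

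Many genes of the synergid and egg cell lists were also higher in phyB at nAT. Of 11 tested genes for synergid function and pollen tube attraction, 8 were higher uncorrected, against 21.2% of all genes, and the same 8 remained, against 11.9% of all genes, with a median of 2.732 uncorrected and 2.948 corrected. The LURE1 peptides, defensin-like proteins that synergids secrete to guide pollen tubes, lie in a cluster on chromosome 5. LURE1.2 (17474049 to 17474485) had 0.718, 1.25, 1.15 and 0.501 CPM in phyB and no count in any Col-0 library. Its 84 counts are at least 18.3-fold higher than a floor of 3 counts over the 4 Col-0 libraries. LURE1.5 had 1.71, 1.07, 1.74 and 2.00 CPM in phyB, against 0.0693 CPM in 1 Col-0 library and 0 in the other 3, a ratio of 98.1 (95% interval 17.3 to 3900 for counting error). LURE1.3, with 0.943, 0.984, 1.35 and 1.09 CPM in phyB, against 0.139, 0.242, 0.202 and 0.0544 CPM in Col-0, had 2.83 and 3.05. In all 3 the groups do not overlap, where 37.9% of all genes had every phyB library above every Col-0 library. Reads of these similar genes could be assigned to one another.

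Further genes of the list were higher. AT5G48605 had 1.57, 1.79, 1.31 and 1.69 CPM in phyB, against 0.277, 0.403, 0 and 0.272 CPM in Col-0 (2.73 and 2.95). AT5G50423 stood at 3.35 and 3.69, LURE1.4 at 3.69 and 3.95, and LURE1.1 at 2.19 and 2.31. In Col-0 LURE1.4 had 0.27 CPM in replicate 3 and 0 in the other libraries. Of the 11 tested genes of the list, 5 averaged under 1 CPM in both groups, so that their values rest on few counts. AT5G18403, at 1.62 and 1.81, lost its uncorrected call without Col-0 replicate 1 (1.377), 3 (1.216) or 4 (1.418). AT4G14276, with 0.62 and 0.92, was below the threshold, and had corrected calls without phyB replicate 3 (1.06) or Col-0 replicate 4 (1.099). MYB98, the synergid factor that switches on LURE genes, had 1.35, 1.3, 1.19 and 0.957 CPM in phyB, against 1.11, 1.69, 1.08 and 1.47 CPM in Col-0, and its log2 fold change of -0.15 was not called (adjusted p = 0.581, edgeR).

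Of 7 egg cell genes 6 remained higher, where 11.9% of all genes did. The median was 1.974 uncorrected and 2.341 corrected. The summed level was 19.79 to 23.43 CPM in phyB and 6.584 to 8.759 CPM in Col-0. The EC1 proteins are released by the egg cell when sperm arrive and let the gametes fuse. EC1.3 had 1.84, 2.41, 1.82 and 2.82 CPM in phyB, against 0, 0.323, 0.606 and 0.163 CPM in Col-0 (3.03 and 3.31). EC1.1 stood at 2.82 and 3.23, EC1.2 at 2.42 and 2.69, EC1.5 at 1.97 and 2.34, and EC1.4 at 0.91 and 1.17, just short of an uncorrected call that it reached without Col-0 replicate 3 (1.046). In Col-0 EC1.1 had 0.485 CPM in replicate 1 and 0 in the other libraries. Of a pair of aspartyl protease genes on the list, AT1G31450 had 2.83, 3.35, 3.01 and 4.05 CPM in phyB, against 1.18, 0.645, 1.01 and 0.707 CPM in Col-0 (1.90 and 2.15), and AT2G35615 had 1.38 and 1.57.

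The direction was the opposite at hAT for the synergid list. There 6 of the 11 genes were called lower in phyB and none higher, with a median of -1.073, and the egg cell median was -0.476 with no call. The summed level of the synergid list at nAT, most of it FER, which had no call, was 204.5 to 222.1 CPM in phyB and 177 to 237.1 CPM in Col-0. At hAT LURE1.5 averaged 6.20 CPM in phyB and 21.9 CPM in Col-0, and AT5G48605 5.32 CPM in phyB and 17.6 CPM in Col-0. Each of LURE1.1, LURE1.2, LURE1.5, AT5G48605, AT5G50423 and AT5G18403 differed between temperatures in both fits. Of 9 central cell genes 2 remained higher, where 11.9% of all genes did, with a list median of 0.127 uncorrected and 0.18 corrected. Leaving out 1 library at a time left 7 to 8 synergid and 6 to 7 egg cell genes higher.

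Some markers of other tissues that a dissected pistil could carry also differed, where 11.9% of all genes remained higher and 6.8% lower. Of 15 tested tapetum genes, which act in the anther wall that feeds pollen, 9 remained higher, and their summed level was 154.4 to 161.9 CPM in phyB and 46.71 to 91.5 CPM in Col-0. TKPR1, a reductase of pollen wall formation, had 11.0, 11.0, 10.1 and 10.5 CPM in phyB, against 1.32, 0.645, 1.82 and 0.871 CPM in Col-0 (3.18 and 3.58), and BGLU20, a beta-glucosidase expressed in anthers, had 3.36 and 3.19. PKSA, a polyketide synthase for the pollen wall, had 1.96 and 2.03. Of 9 pollen genes 2 remained higher, with a sum of 258.3 to 270.3 CPM in phyB and 163 to 202.6 CPM in Col-0, and AT3G07850, a pollen polygalacturonase, had 77.4, 81.5, 75.3 and 74.1 CPM in phyB, against 22.2, 11.1, 22.9 and 16.3 CPM in Col-0. None of 5 petal and stamen identity genes remained. Of 8 leaf genes 4 remained lower and the sum was lower, at 8305 to 8723 CPM in phyB and 18540 to 23620 CPM in Col-0. At hAT 1 tapetum and 3 pollen genes were called lower in phyB and none higher, where 3.22% of all genes were called lower. The hAT medians were -0.34 for tapetum, -0.81 for pollen and 0.666 for leaf genes, against -0.014 for all genes. Of the leaf genes 1 was called higher there, where 1.56% of all genes were. The part of these tissues in the gametophyte, photosynthesis and other results was not tested. Of 12 carpel and ovule identity genes only WUS was called and remained higher, at 2.02, 2.19, 1.62 and 1.55 CPM in phyB, against 1.32, 1.13, 0.539 and 0.435 CPM in Col-0, a call that was lost without Col-0 replicate 3 (0.9868) or 4 (0.8969).

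The 12 largest falls, chosen by the same rule, lay between -4.44 and -2.37 with the correction. Another 12 genes without a symbol fell at least as far as the last of these, led by a pair that was named after their values were seen. AT1G75945 (chromosome 1, 28515245 to 28515916) had 0.0449, 0.0894, 0.0396 and 0 CPM in phyB, against 35.6, 36.7, 29.0 and 33.5 CPM in Col-0 (-9.42 and -9.10). At hAT it averaged 0.0297 CPM in phyB and 21.4 CPM in Col-0 (-9.21), with no interaction call, and no count was found in 35S::PIF4 at nAT. AT1G67105 (chromosome 1, 25057479 to 25058264), annotated as a noncoding RNA, had 0.224, 0.224, 0 and 0.456 CPM in phyB, against 32.3, 32.7, 28.8 and 31.6 CPM in Col-0 (-7.13 and -6.69), and averaged 0.168 CPM in 35S::PIF4 at nAT. Both transcripts were close to 0 in every phyB library at nAT.

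Among the 12 with a symbol LSU1 came first. LSU1 (AT3G49580, chromosome 3, 18374908 to 18375940), a small protein induced when sulfur is short, had 0.673, 0.537, 0.554 and 0.41 CPM in phyB, against 15.5, 20.7, 14.4 and 14.7 CPM in Col-0. Its log2 fold change was -4.89 (standard error 0.23) uncorrected and -4.44 (standard error 0.22, adjusted p = 4.492e-16, edgeR) corrected. CYP21-2 (AT3G55920, chromosome 3, 20743443 to 20745153), a cyclophilin that turns prolines in proteins, had 0.718, 0.537, 0.673 and 0.774 CPM in phyB, against 17.1, 21.9, 15.6 and 14.9 CPM in Col-0 (-4.67 and -4.22). Both genes were nearly silent in every phyB library.

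CYP21-2 was as low in phyB at hAT, where it averaged 0.675 CPM in phyB and 19.5 CPM in Col-0 (-4.85), with no interaction call, and it stood at 23.2 CPM in 35S::PIF4 at nAT. LSU1 averaged 0.393 CPM in phyB and 0.759 CPM in Col-0 at hAT, with no call there, and 1.92 CPM in 35S::PIF4 at nAT. A second cyclophilin, CYP19-1, was far more abundant, with 414, 405, 401 and 410 CPM in phyB, against 2425, 4263, 1565 and 2374 CPM in Col-0 (-2.71 and -2.37). LTP4, a lipid transfer protein of the cuticle and of stress responses, had 24.1, 19.5, 18.3 and 23.1 CPM in phyB, against 181, 189, 164 and 168 CPM in Col-0 (-3.04 and -2.60). The phosphate starvation RNA AT4 and the defensin-like gene LCR26 had corrected values of -2.37 and -2.38. Of the 12 with a symbol, 2 were also called lower at hAT (CYP21-2 and PSAJ), 10 had no call there, and 11 differed between temperatures in both fits, CYP21-2 being the exception. The test of that difference shares the nAT libraries that chose the genes.

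Genes that respond to sulfur shortage were lower. Of 14 tested, 9 were lower uncorrected (11.9% of all genes were) and 8 remained, with a median of -1.614 uncorrected and -1.636 corrected. LSU2 stood at -2.86 and -2.44 and LSU3, with 5.43, 5.77, 5.30 and 6.06 CPM in phyB, against 33.0, 35.9, 41.8 and 33.3 CPM in Col-0, at -2.67 and -2.24. The APS reductases carry out the committed step that turns sulfate into sulfite. APR2 had 30.9, 31.4, 31.6 and 30.7 CPM in phyB, against 94.2, 112, 111 and 88.5 CPM in Col-0 (-1.70 and -1.92), and APR1 and APR3 had corrected values of -1.84 and -1.71. SULTR4;2, a transporter that lets sulfate out of the vacuole and is itself induced by sulfur shortage, went the other way, with 25, 23.8, 25.3 and 24.1 CPM in phyB, against 7.69, 5.24, 11.1 and 6.64 CPM in Col-0 (1.67 and 1.23). At hAT the list median was -0.346.

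Cold-regulated genes were lower too, 8 of 15 uncorrected and 7 in both fits, where 11.9% and 6.8% of all genes were. The list median was -1.085 uncorrected and -0.759 corrected. KIN2 had 116, 114, 106 and 113 CPM in phyB, against 564, 987, 380 and 554 CPM in Col-0 (-2.47 and -2.0). COR15A, which protects chloroplast membranes in the cold, had 9.25, 9.66, 8.63 and 9.75 CPM in phyB, against 33.7, 35.0, 33.6 and 29.4 CPM in Col-0 (-1.82 and -1.79). RD29A, a marker of drought and cold responses, had -1.84 and -2.46. None of these groups overlap, where 30.7% of all genes had every phyB library below every Col-0 library. When 1 library was left out, 5 to 7 genes remained lower.

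In flavonoid biosynthesis 4 of 16 genes remained lower and 1 higher, where 6.8% and 11.9% of all genes did. CHS, chalcone synthase and the entry to the pathway (AT5G13930, chromosome 5, 4488476 to 4490264), had 762, 775, 750 and 749 CPM in phyB, against 2892, 3028, 2802 and 2886 CPM in Col-0 (-1.94, standard error 0.07, and -2.02). The groups are far apart, and at hAT it averaged 656 CPM in phyB and 539 CPM in Col-0, with no call. CHI3 stood at -1.97 and -1.69, FLS1, flavonol synthase, at -1.16 and -1.16, and UGT78D2, which adds glucose to flavonoids, at -1.06 and -1.07. The corrected call of UGT78D2 was lost with a correction for length and GC content (-0.8818). It was also lost under a stricter filter, a mean of at least 5 CPM in 1 group (-0.9855). TT2, a MYB activator of seed coat tannins, was higher at 1.13 and 1.54, a call lost without Col-0 replicate 3 (0.9964) or 4 (0.8979).

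Some gibberellin and jasmonate genes were lower, and their counts stand beside the 6.8% of all genes that remained lower. Of 17 gibberellin genes 3 remained lower, among them the DELLA repressors RGA, with 179, 176, 186 and 188 CPM in phyB, against 376, 392, 374 and 370 CPM in Col-0 (-1.05 and -1.43), and RGL1, with 137, 136, 136 and 132 CPM in phyB, against 273, 299, 325 and 292 CPM in Col-0 (-1.13 and -1.37). RGL2 (-0.99 and -1.37) and GAI (-0.70 and -1.16), also DELLA genes, passed with the correction only, RGL2 also uncorrected at -1.003 without phyB replicate 1 or Col-0 replicate 2 and at -1.009 without Col-0 replicate 4. Of 14 jasmonate genes 2 remained lower, or 4 without Col-0 replicate 2. CYP74A, allene oxide synthase of jasmonate synthesis, had 29.0, 29.9, 26.7 and 28.7 CPM in phyB, against 69.8, 77.3, 66.4 and 67.4 CPM in Col-0 (-1.3 and -1.51). AOC2 of the same route had -2.44 and -2.12. VSP1, a jasmonate-induced storage protein, averaged 5557 ± 141 CPM in phyB and 13385 ± 551 CPM in Col-0 (SD, n = 4 each), with -1.27 and -0.97, and -1.024 corrected without Col-0 replicate 2.

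Many auxin-responsive genes of the SAUR family were lower. Of 21 SAUR genes tested, short genes for rapidly made proteins that promote cell expansion, 17 were lower uncorrected and 10 remained (11.9% and 6.8% of all genes), with a median of -1.404 uncorrected and -0.969 corrected. SAUR21 had 3.82, 3.58, 4.28 and 3.33 CPM in phyB, against 16.9, 23.4, 17.2 and 18.8 CPM in Col-0 (-2.34 and -1.89), and SAUR24 had -2.46 and -2.05. SAUR19, SAUR20, SAUR22 and SAUR23 had corrected values of -1.21, -1.11, -1.21 and -1.14. These genes are near-identical neighbours on chromosome 5, so that reads may be split among them, and SAUR19 lost its corrected call (-0.7802) without Col-0 replicate 2, where it had 11.1 CPM against 3.37 to 4.43 CPM in the other Col-0 libraries. SAUR50, with 42.1, 40.6, 39.8 and 37.9 CPM in phyB, against 113, 175, 94.3 and 104 CPM in Col-0, had -1.60 and -1.14, and -0.9994 corrected without Col-0 replicate 2. SAUR15 had -1.46 and -1.02, and its corrected call was lost without phyB replicate 1 (-0.9356) or 3 (-0.85), or Col-0 replicate 4 (-0.6688). With a length correction by medians in 50 bins, SAUR22 (-0.9445), SAUR23 (-0.7799), SAUR50 (-0.9421) and SAUR15 (-0.6617) had no corrected call. SAUR20 had none under a stricter filter, a mean of at least 5 CPM in 1 group (-0.7136). It also had none with the 8 nAT libraries alone (-0.9226).

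Among 25 Aux/IAA repressors 3 remained lower, where 6.8% of all genes did, and 1 without Col-0 replicate 2. IAA17 had 47.9, 54.1, 45.6 and 48.1 CPM in phyB, against 132, 133, 115 and 133 CPM in Col-0 (-1.39 and -1.07). IAA9, with 409, 387, 385 and 390 CPM in phyB, against 803, 1043, 681 and 777 CPM in Col-0, had -1.07 and -1.34, and -0.94 uncorrected without Col-0 replicate 2. IAA8 (-0.83 and -1.06), IAA33 (-1.17 and -0.72) and GH3.3, which conjugates auxin to amino acids (-0.60 and -0.84), did not remain. Of 15 ARF factors, which bind auxin response elements, 4 were higher uncorrected, where 21.2% of all genes were, and none in both fits. ARF19 fell short with 1.90 and 0.59. ARF3, which patterns the gynoecium, had -0.50 and -1.28.

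**Figure D4:**
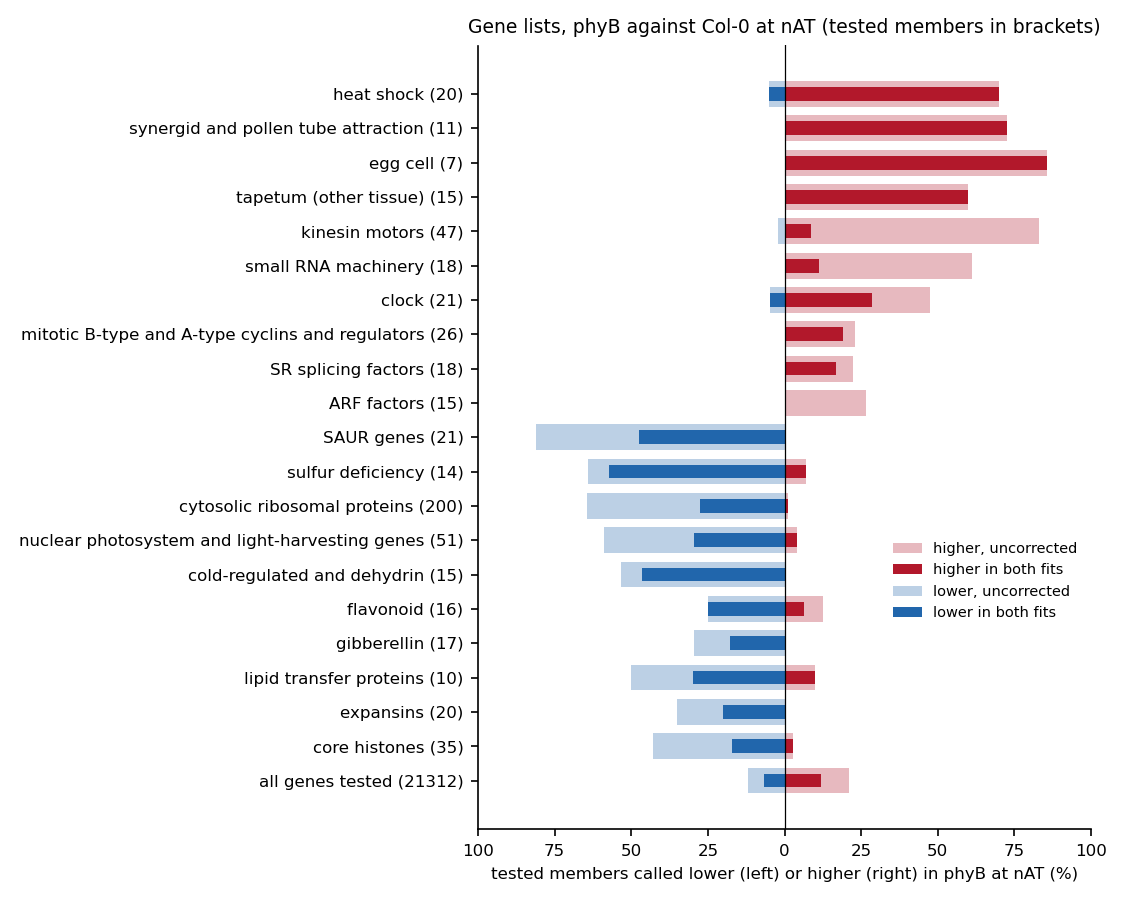
Share of the tested members of each gene list called higher (right, red) or lower (left, blue) in phyB than in Col-0 at nAT, in per cent, before the length correction (pale) and in both fits (dark), with the number tested in brackets and all 21312 genes at the bottom. Heat shock, synergid, egg cell and tapetum bars keep their length, whereas the kinesin bar shrinks to 4 of 47 genes.

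Some lists lost most of their calls with the length correction, while 21.2% of all genes were higher uncorrected and 11.9% in both fits. Of 47 kinesin motors, long genes that move cargo and chromosomes on microtubules, 39 were higher uncorrected and 4 remained, with a median of 1.417 uncorrected and 0.535 corrected. KIN4B, which guides division plane microtubules, was among these, with 56.5, 59.6, 58.0 and 58.1 CPM in phyB, against 8.52, 4.76, 12.3 and 9.41 CPM in Col-0 (2.71 and 1.63), and KIN14P had 3.4 and 2.33. In the small RNA machinery 11 of 18 genes were higher uncorrected and 2 remained, a share near the 11.9% of all genes, with a median of 1.158 uncorrected and 0.135 corrected. DCL1 (AT1G01040, chromosome 1, 23121 to 31227), the ribonuclease that cuts miRNA precursors, had 71.1, 72.3, 71.3 and 72.6 CPM in phyB, against 11.4, 4.68, 11.0 and 12.6 CPM in Col-0, and its log2 fold change of 2.83 became 1.19 (standard error 0.07, adjusted p = 1.85e-14, edgeR). DCL2, which makes antiviral small RNAs, had 2.62 and 1.09.

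The other Dicer and Argonaute genes did not remain. DCL3 had 1.73 and 0.26 and DCL4 1.68 and 0.09. AGO1, the main effector of miRNAs, had 531, 545, 539 and 538 CPM in phyB, against 236, 165, 268 and 252 CPM in Col-0. Its groups do not overlap, as for 37.9% of all genes, with phyB above, and it had 1.23 and 0.10. AGO9, which acts in ovules to limit gamete precursors, had 672, 681, 677 and 693 CPM in phyB, against 203, 120, 243 and 205 CPM in Col-0, and its corrected value of 0.97 lies just under the threshold, which it passed without Col-0 replicate 3 (1.032). None of 7 tested SPL genes that miR156 targets was called uncorrected, SPL9 having -0.94 and -1.07 and SPL5 -0.62 and -0.79. The precursor transcript MIR156D was found in 45 counts in phyB and 2 in Col-0, a ratio of 14.7 (95% interval 3.84 to 125 for counting error). MIR160C, with 0.494, 0.76, 0.435 and 0.501 CPM in phyB, against 0.139, 0.161, 0.202 and 0.109 CPM in Col-0, lost its corrected call without phyB replicate 2 (0.9186) or Col-0 replicate 1 (1.06), 2 (1.09) or 4 (0.9263). Poly(A) libraries do not measure mature miRNAs.

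Clock genes lay between these patterns, with 10 of 21 higher uncorrected and 6 in both fits, where 21.2% and 11.9% of all genes were. Without Col-0 replicate 2 there were 4 in both fits. In the other direction TCP21 remained lower, and 3 clock genes were lower with the correction. CCA1, a morning MYB repressor, had 238, 236, 240 and 240 CPM in phyB, against 73.2, 52.6, 105 and 71.2 CPM in Col-0 (1.66 and 1.01), and its corrected value was 0.9799, 0.9458 and 0.9606 without Col-0 replicate 1, 2 or 4. RVE8, a related activator, had 1.5 and 1.11. PRR3, which stabilises the evening repressor TOC1, had 5.39, 7.42, 7.32 and 7.01 CPM in phyB, against 0.346, 0.565, 0.741 and 1.03 CPM in Col-0 (3.28 and 2.58). PCL1, an evening gene also called LUX, was lower in the corrected fit only (-0.84 and -2.10). At what time of day pistils were collected is not stated in the sources used here.

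Of 26 cyclins and regulators of mitosis 5 remained higher, where 11.9% of all genes did. The anaphase activators CDC20-2, with 75.4, 67.9, 79.8 and 69.8 CPM in phyB, against 7.76, 5.73, 6.94 and 10.2 CPM in Col-0 (3.23 and 3.05), and CDC20-1, with 135, 134, 134 and 143 CPM in phyB, against 31.9, 29.4, 34.4 and 32.3 CPM in Col-0 (2.09 and 1.85), are neighbours on chromosome 4 and may share reads. CYCB3;1 had 1.77 and 1.57. None of 14 DNA replication genes remained. At hAT the CDC20 pair and CYCB3;1 had log2 fold changes between -0.06 and 0.02, whereas CYCB1;5 averaged 17.2 CPM in phyB and 4.92 CPM in Col-0. Of 18 SR splicing factors 3 remained higher, SR34b, RS31A (1.34 and 1.21) and SR30, with 90.6, 95.2, 98.3 and 101 CPM in phyB, against 33.9, 28.0, 28.9 and 34.7 CPM in Col-0 (1.61 and 1.29).

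Genes of protein synthesis and photosynthesis, mostly short, were lower, where 11.9% of all genes were lower uncorrected and 6.8% in both fits. Of 200 cytosolic ribosomal protein genes 129 were lower uncorrected and 55 remained, 44 without Col-0 replicate 2, with a median of -1.156 uncorrected and -0.776 corrected. RPS16C had 702, 675, 680 and 679 CPM in phyB, against 3335, 4291, 2694 and 2996 CPM in Col-0 (-2.28 and -1.84). Of 51 nuclear photosystem and light-harvesting genes 30 were lower and 15 remained, with 2 higher in both fits. RBCS-1A, a small subunit of Rubisco, had 3146, 3096, 3033 and 3025 CPM in phyB, against 8106, 9430, 7542 and 7846 CPM in Col-0 (-1.42 and -1.06). RCA, Rubisco activase, had -0.15 and -0.40. At hAT the photosystem median was 0.203 with 3 genes higher, and the ribosomal median -0.036.

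Many organelle transcripts were lower as well, 30 of 63 tested chloroplast genes and 17 of 34 mitochondrial genes in both fits, and 3 chloroplast genes remained higher. Over all genes 6.8% remained lower and 11.9% higher. PSAJ, a small subunit of photosystem I, had 0.718, 1.03, 0.396 and 0.774 CPM in phyB, against 9.70, 11.6, 6.47 and 7.67 CPM in Col-0 (-3.60 and -3.98). PSBM of photosystem II had -2.81 and -3.41 and the chloroplast ribosomal protein RPL32 -2.55 and -2.81. RRN23S.1, a chloroplast ribosomal RNA, had -1.67 and -2.38. Chloroplast genes took 0.008106 to 0.01389% of all counts in phyB nAT and 0.0159 to 0.02105% in Col-0 nAT, and mitochondrial genes 0.02625 to 0.03507% in phyB nAT and 0.04585 to 0.07624% in Col-0 nAT, which had the highest shares of all 6 groups in both. Organelle RNAs mostly lack the long poly(A) tails that these libraries select. Among core histones 15 of 35 were lower and 6 remained, while HTR11, a variant histone H3, was higher with 11.8, 10.6, 9.70 and 9.61 CPM in phyB, against 2.49, 2.18, 2.63 and 3.05 CPM in Col-0 (1.99 and 2.39).

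Cell wall and surface genes went both ways. Of 20 expansins, which loosen walls during growth, 4 remained lower, where 6.8% of all genes did, EXPA11 with 8.53, 8.45, 7.20 and 9.43 CPM in phyB, against 43.4, 67.0, 35.5 and 40.3 CPM in Col-0 (-2.46 and -2.15), and EXPB3 with -1.49 and -1.73. Among 21 XTH genes 4 remained higher and 3 lower, where 11.9% and 6.8% of all genes did. XTH5 had 9.11, 8.59, 10.1 and 8.70 CPM in phyB, against 0.97, 1.69, 1.41 and 1.80 CPM in Col-0 (2.62 and 2.45), XTH23 had 3.25 and 3.5, and the abundant XTH9 averaged 1125 ± 9.86 CPM in phyB and 3520 ± 1165 CPM in Col-0 (SD, n = 4 each), with -1.65 and -1.54. LTP1 averaged 3504 ± 87.5 CPM in phyB and 11572 ± 1552 CPM in Col-0 (SD, n = 4 each), with -1.72 and -1.27. Its corrected call was lost under a stricter filter, a mean of at least 5 CPM in 1 group (-0.9821). HEC1, a factor of the style and transmitting tract through which pollen tubes grow, had 7.81, 8.45, 8.19 and 7.83 CPM in phyB, against 26.7, 46.1, 25.2 and 29.3 CPM in Col-0 (-1.97 and -1.60). Of the 10 genes on that list only HEC1 remained lower and 1 other remained higher, where 6.8% and 11.9% of all genes did. The list median was 0.096 uncorrected and 0.167 corrected.

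Few of the changes at nAT were found again at hAT. At hAT, where the same rule was used, 332 genes (1.56%) were higher and 686 (3.22%) lower in phyB, and 321 (1.51%) and 565 (2.65%) in both fits. Of the 2539 genes that remained higher at nAT, 155 (6.1%) were called higher and 63 (2.48%) lower at hAT in both fits, with a median log2 fold change of 1.804 at nAT with the correction and 0.041 at hAT. Of the 1449 that remained lower, 101 (6.97%) were called lower and 16 (1.1%) higher, with medians of -1.338 and -0.109. The difference between the temperatures was called in the same direction in both fits for 2075 (81.7%) of the higher and 969 (66.9%) of the lower genes, and this test shares the nAT libraries that chose the genes. Over all genes tested the same call was made for 12.9% and 7.36%.

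The genes called in the same direction at both temperatures, with no library in common, had a median of 2.845 at nAT with the correction and 1.551 at hAT for the 155 higher, and -1.551 and -1.561 for the 101 lower. For 81 of the higher and 88 of the lower genes no difference between temperatures was called in either fit. A call needs a log2 difference of at least 1, so smaller differences can be among them. Beside the heat shock genes they included HXK3, a plastid hexokinase, with 11.8, 11.2, 12.0 and 12.8 CPM in phyB, against 0.97, 1.37, 1.62 and 1.47 CPM in Col-0 at nAT (3.12 and 2.93) and 2.10 at hAT. MAF4, a relative of the flowering repressor FLC, had 8.89, 8.67, 8.63 and 9.02 CPM in phyB, against 1.39, 1.29, 0.606 and 1.63 CPM in Col-0 (2.82 and 2.78), and 1.29 at hAT. These were chosen after their values were seen, as were the next.

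THI2.2, a thionin of defence, had 2.17 and 2.61 at nAT and averaged 18 CPM in phyB and 0.887 CPM in Col-0 at hAT. CYP707A4, which degrades abscisic acid, had 11.2, 11.7, 11.1 and 11.2 CPM in phyB, against 2.36, 2.74, 5.12 and 3.54 CPM in Col-0 (1.70 and 1.59), and 1.03 at hAT. Among those lower at both temperatures RL4, a small MYB-like protein, had 15.7, 15.9, 17.7 and 16.3 CPM in phyB, against 84.3, 85.1, 73.9 and 72.3 CPM in Col-0 (-2.26 and -1.84), and -1.66 at hAT. AtGH9B15, a cellulase-like glycosyl hydrolase, had -1.08 and -1.28 at nAT, a call lost without Col-0 replicate 3 (-0.9408), and -2.38 at hAT. LBD25 had -1.50 and -1.07 at nAT and -2.80 at hAT, and LSU4 had -2.09 and -1.65 at nAT and -1.80 at hAT. The corrected nAT call of LBD25 was lost with a length correction by medians in 50 bins (-0.911).

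**Figure D5:**
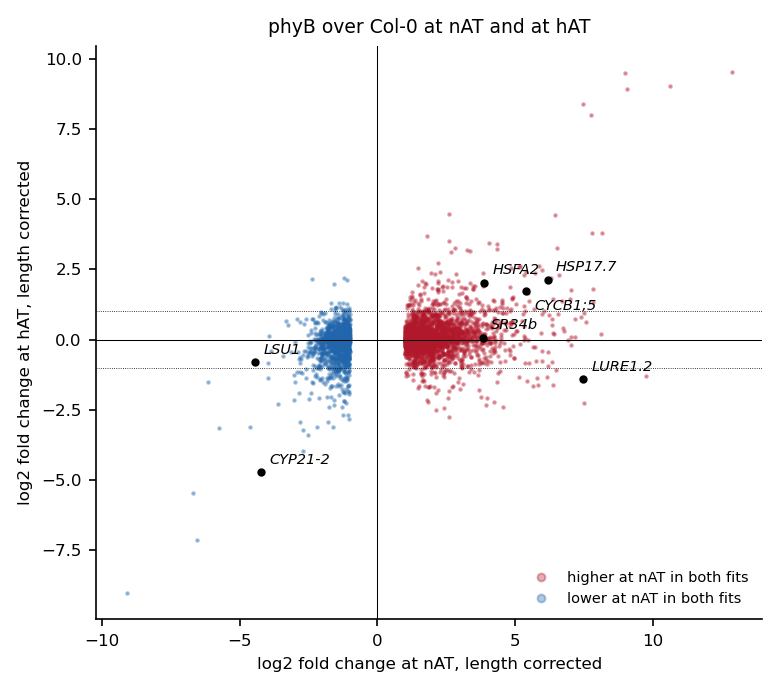
Length-corrected log2 fold change of phyB over Col-0 at nAT (horizontal) and at hAT (vertical) for the 2539 genes that remained higher at nAT (red) and the 1449 that remained lower (blue), 1 point a gene, with 7 genes marked in black and dotted lines at -1 and 1. Most points lie near 0 at hAT, whereas HSP17.7, HSFA2, CYCB1;5 and CYP21-2 moved the same way at both temperatures.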

How the data were processed

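Poly(A) RNA of pistils was sequenced in paired-end mode, and the authors counted reads per gene with featureCounts on TAIR10. The deposited table holds raw counts of 33055 genes in 24 libraries, in 6 groups of 4. Aligner: not given in the sources used here, and likewise the strand setting. Without strand, reads of a gene and an antisense or overlapping partner cannot be told apart. A label names ovules as the extracted material where the others name pistils. The study's methods call the replicates biological. The labels do not say that they came from separate plants, so p-values measure the spread between these libraries. Intervals and floors cover counting error only.

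Genes were kept by filterByExpr with the group (21312 genes), libraries were scaled by TMM, and edgeR 4.0.16 (R 4.3.3) quasi-likelihood tests were run on all 24 libraries with a mean per group (18 residual degrees of freedom). P-values were adjusted by Benjamini and Hochberg over all genes tested. A call needed an adjusted p under 0.05 and a log2 fold change of at least 1 in size. For the length correction the log2 CPM (prior count 2) of each library, minus the mean over the 24 libraries, was regressed on a natural spline of log2 gene length (6 degrees of freedom) with Huber weights (MASS), and the fitted curve entered the model as an offset. The robust regression was chosen after a least-squares curve had left the corrected median away from 0. The model was tested on simulated counts.

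The genes and lists were chosen with earlier results of these data known. Named genes were the 12 largest corrected changes in each direction among genes with a symbol in the count table, called in both fits, with a mean of at least 5 CPM in 1 group and no overlap between the 4 phyB and 4 Col-0 libraries, up to 4 per list with a mean of at least 1 CPM in 1 group, genes of the phytochrome pathway and of the study, and genes chosen after their values were seen where the text says so. Coordinates of 32532 of 32548 matched genes were the same in RefSeq TAIR10.1. Alternatives were DESeq2 1.42.0 and its size factors, other filters, the 8 libraries alone, a replicate block, other length corrections and leaving out each library. Replicate numbers did not pair the samples.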

Additional observations from a re-analysis of the deposited data

Results flagged for a closer look

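In 23 of 312 groups of 4 libraries (7.37%) 1 library stood apart by Dixon's ratio, the gap to its neighbour over the range. Chance gives about 1 in 20 for normally distributed values. A high ratio can go with a small difference: RCA had 931 CPM against 894 to 900 CPM in the other phyB libraries. It is 1 wherever the other libraries hold 0, as for LURE1.5, LURE1.4, EC1.1 and HSP17.4A in Col-0. Of the 23 flags, 6 were Col-0 replicate 2, which held 18.2 CPM of AT4, 1.86 CPM of CYCB3;1, 55.1 CPM of SPL5, 11.1 CPM of SAUR19, 15.4 CPM of IAA33 and 1206 CPM of HSP90-3. The other Col-0 flags were 0.0693 CPM of LURE1.5 and 0.485 CPM of EC1.1 in replicate 1, 181 CPM of STK, 115 CPM of IAA17 and 0.27 CPM of LURE1.4 in replicate 3, and 0.0544 CPM of HSP17.4A in replicate 4. In phyB replicate 1 the levels that stood apart were 59.9 CPM of PHYB, 13.0 CPM of CYCB1;5, 138 CPM of CHI3 and 931 CPM of RCA. In phyB replicate 2 they were 5.63 CPM of RPL32 and 11.7 CPM of CYP707A4. In phyB replicate 3 they were 0.238 CPM of AT5G18403, 17.7 CPM of FKBP65, 59.5 CPM of APR1 and 63.6 CPM of DCL4, and in phyB replicate 4 143 CPM of CDC20-1.

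The genotype difference itself differed between temperatures for 2075 of the genes that remained higher at nAT and for 969 of those that remained lower, by the interaction term of the edgeR fits. That term shares the nAT libraries that chose the genes. Genes called higher in phyB at nAT and lower at hAT differed most plainly, with a length-corrected log2 fold change at nAT minus that at hAT of 8.9 for LURE1.2, 7.98 for LURE1.5, 6.06 for EXL4, 5.51 for XTH3, 4.56 for AT5G50423, 4.46 for AT5G48605, 3.95 for AT5G18403 and 3.36 for LURE1.1. The values for LURE1.2 and LURE1.5 rest on 0 and 1 counts in Col-0 at nAT and depend on the prior count.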

How the results depend on the processing

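No call reversed its direction under any alternative run on the 156 genes named in the text, and no gene that remained was called in the opposite direction. Of the 3988 genes that remained, 87% (without Col-0 replicate 2) to 98.8% (replicate block) were again called in both fits among those tested. Counts over all genes moved by over 1.5 times only under the stricter filter, a mean of at least 5 CPM in 1 group, which tests fewer genes: 1873 higher and 1294 lower with the length correction, 1562 higher and 817 lower in both fits, 128 higher and 268 lower at hAT, and 136 higher and 218 lower at hAT with the correction. Leaving out 1 library at a time gave 4220 to 4794 higher and 2111 to 2773 lower genes uncorrected, 2773 to 2988 higher and 1828 to 2307 lower corrected, and 2496 to 2634 higher and 1260 to 1585 lower in both fits, lowest without Col-0 replicate 2 and highest without Col-0 replicate 3. With a replicate block, 4522 genes were higher and 2514 lower uncorrected, and 2530 and 1430 in both fits; the numbers share no more than a number, since the deviations of same-numbered libraries correlated between -0.02 and 0.044. DESeq2's Wald test gave 2482 higher and 1576 lower in both fits, and medians in 50 length bins 2585 and 1310. In the 7104 genes of 1384 to 2096 bases, fitted alone with no correction, 1086 were higher and 447 lower, against 975 and 579 in the uncorrected fit of all genes. The length-corrected fit of all genes called 885 of these genes higher and 653 lower. Of the genes of this length that remained, 841 of 841 higher and 413 of 507 lower had the same call when fitted alone. Of 4626 comparisons of single genes with an alternative, 44 corrected and 17 uncorrected calls were lost, and 14 and 13 gained.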

Other observations

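A few genes not named above were called in phyB at nAT, some of them in classes already counted above. EBF1, an F-box protein that removes the ethylene factor EIN3, averaged 172 CPM in phyB and 352 CPM in Col-0, with log2 fold changes of -1.03 uncorrected and -1.90 corrected, and it was the 1 of 11 tested ethylene genes that remained lower, where 6.8% of all genes did. MEA, a Polycomb gene of the central cell and endosperm, averaged 1.29 CPM in phyB and 0.363 CPM in Col-0 (1.69 and 1.27), and HDG6, also called FWA and active in the central cell, had 3.1 and 2.67 from 0.479 CPM in phyB and 0.0473 CPM in Col-0. PTAC12, a partner of phytochrome signalling also called HEMERA, averaged 66.4 CPM in phyB and 27.8 CPM in Col-0 (1.25 and 1.02). None of these 4 genes was called at hAT. AT5G40270 had 7.27, 8.09, 7.36 and 7.79 CPM in phyB, against 18.7, 14.8, 18.1 and 15.2 CPM in Col-0 at nAT (-1.13 and -1.34), and averaged 10.3 CPM in phyB and 20.4 CPM in Col-0 at hAT. Leaving out Col-0 replicate 1 ended the corrected call of MEA (0.9269), replicate 2 that of PTAC12 (0.8771) and replicate 3 the uncorrected call of EBF1 (-0.9791). These genes were named after their values were seen.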
